A study of Mus musculus with 8 samples.

Results

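Transcripts of glycolysis and of the response to low oxygen were followed in a mouse epicardial cell line, in cells with CRISPR/Cas9 directed at Hdac3 (KO) and in cells with an empty lentiviral vector (EV). The 40 genes were chosen by name and are 25 genes of glucose use (glucose and lactate carriers, glycolytic enzymes, PFKFB regulators and pyruvate dehydrogenase kinases) and 15 genes of oxygen sensing and oxygen response. All 40 were found among the 35275 genes of the deposited table, and 38 had enough counts to be tested. RNA sequencing covered 4 KO and 4 EV libraries. KO cells received a lentivirus carrying a guide RNA for Hdac3, a histone deacetylase, and EV cells a lentivirus without it. Both groups were grown on dishes in DMEM with high glucose and fetal bovine serum, and total RNA was taken with Trizol. The oxygen level during culture, and whether KO cells are 1 clone or a pool, were not given in the sources used here. Nothing in the labels says that libraries came from separate cultures, so p-values measure only the spread between these libraries, which may be technical. The title of KO replicate 1 says knockout while its characteristics name the empty vector, and it was kept as KO by its title. On the main axis of variation between libraries (first principal component, 54.4% of variance) its expression lay with KO, at 15.5. The other KO libraries lay at 12.7 to 15.5 and the EV libraries at -18.2 to -12.8.

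Glycolysis splits glucose into pyruvate in the cytosol, first spending ATP to phosphorylate and cleave the sugar and then recovering it in the payoff steps. Pyruvate is either reduced to lactate and exported or enters mitochondria through pyruvate dehydrogenase, which PDK kinases switch off. When oxygen is present, the prolyl hydroxylases EGLN1, EGLN2 and EGLN3 (also called PHD proteins) mark the alpha subunits of the hypoxia-inducible factors, HIF1A and EPAS1, for VHL-dependent degradation. When oxygen is scarce the alpha subunits persist, pair with ARNT and raise transcription of many glycolytic genes, of PDK1 and of their own regulator EGLN3. Because this control acts mainly on protein stability, HIF activity is not read from HIF transcripts. The epicardium, the outer layer of the heart, lies in a tissue region where HIF signalling has been described during development.

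The targeted gene, Hdac3, was measured at 63.2, 56.9, 63.9 and 62.6 CPM (counts scaled to library size, with TMM factors) in KO libraries, against 60.3, 61.4, 64.0 and 61.7 CPM in EV libraries. The groups overlapped, and neither edgeR's quasi-likelihood test (adjusted p = 0.956) nor an exact two-sided permutation test (p = 0.943, n = 4 each) found a difference. A guide-directed cut can leave the transcript in place, so this level does not check the labels. Library totals ranged from 19173812 to 24564892 counts in KO and from 18063745 to 22289125 in EV. Of 12 epicardial and mesothelial markers 11 passed the filter on low counts, and the summed level of the 12 was 4464 to 4590 CPM in KO and 4401 to 4656 CPM in EV. Within this sum 7 of the 11 differed in edgeR, with Wt1, Tcf21 and Upk3b lower and Msln, Krt8, Krt18 and Krt19 higher in KO. Upk3b averaged 1465 CPM in KO and 1858 CPM in EV, and Msln 926 CPM in KO and 683 CPM in EV. Aldh1a2 averaged 0.251 CPM in KO and 0.407 CPM in EV. Summed markers of other cell types were 112 to 129 CPM in KO and 146 to 159 CPM in EV for cardiomyocytes and 19.5 to 21.8 CPM in KO and 26.4 to 29.5 CPM in EV for endothelium. They were 9.73 to 11.02 CPM in KO and 6.14 to 7.31 CPM in EV for macrophages, 2.39 to 3.53 CPM in KO and 1.04 to 1.92 CPM in EV for neurons, and 0.159 to 0.517 CPM in KO and 0.139 to 0.712 CPM in EV for red blood cells. Tnnt2 made up most of the cardiomyocyte sum, at 115 CPM in KO and 145 CPM in EV. Of those 10 markers 3 were tested and 3 were higher on average in KO, among them Myh6 (2.30 CPM in KO, 0.968 CPM in EV). Cd68 made up most of the macrophage sum, at 7.89 CPM in KO and 4.74 CPM in EV, and 2 of those 7 markers were tested. Tubb3 made up most of the neuron sum, at 2.47 CPM in KO and 1.25 CPM in EV. Of those 5 markers 1 was tested, and Snap25 and Stmn2 were at 0 in every library. Skeletal muscle markers, 7 in all with Tnnc2, Myod1 and Myog at 0 in every library, summed to 0.0980 to 0.333 CPM in KO and 3.28 to 8.19 CPM in EV. Liver markers summed to 17.3 to 36.2 CPM in KO and 13.8 to 16.9 CPM in EV, with 18 of 20 higher on average in KO and the highest sums in KO replicates 2 and 3. The part of any of these in the results was not tested. In bulk RNA, fewer cells of a type and less RNA per cell cannot be told apart.

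Members of the set changed in both directions, and both directions met within a single step for the aldolases and the pyruvate dehydrogenase kinases. With the quasi-likelihood test of edgeR over 12801 genes, at a threshold of 0.05 for the adjusted p, 5 members were higher in KO (Hk1, Hk2, Aldoc, Pdk1 and P4ha2) and 10 were lower (Slc2a3, Aldoa, Gapdh, Eno1, Ldhb, Slc16a3, Pdk3, Epas1, Egln3 and Kdm3a). These 15 are 39.5% of the 38 tested, against 26.0% of all tested genes, of which 12.6% were higher and 13.4% lower. The members were chosen with earlier results of these data known, and the difference between these shares was not tested. The median absolute log2 fold change was 0.126 over the tested members and 0.135 over all tested genes. KO and EV libraries did not overlap for 19 members, 8 with KO above and 11 with KO below, against 26.5% of all tested genes (12.6% and 13.9%). With an absolute log2 fold change of at least 0.3 as well, 9 members remained called, and 13.6% of all tested genes. The median log2 fold change was 0.01 over the members and 0.01 over all genes, so the set as a whole showed no common direction.

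**Figure D1:**
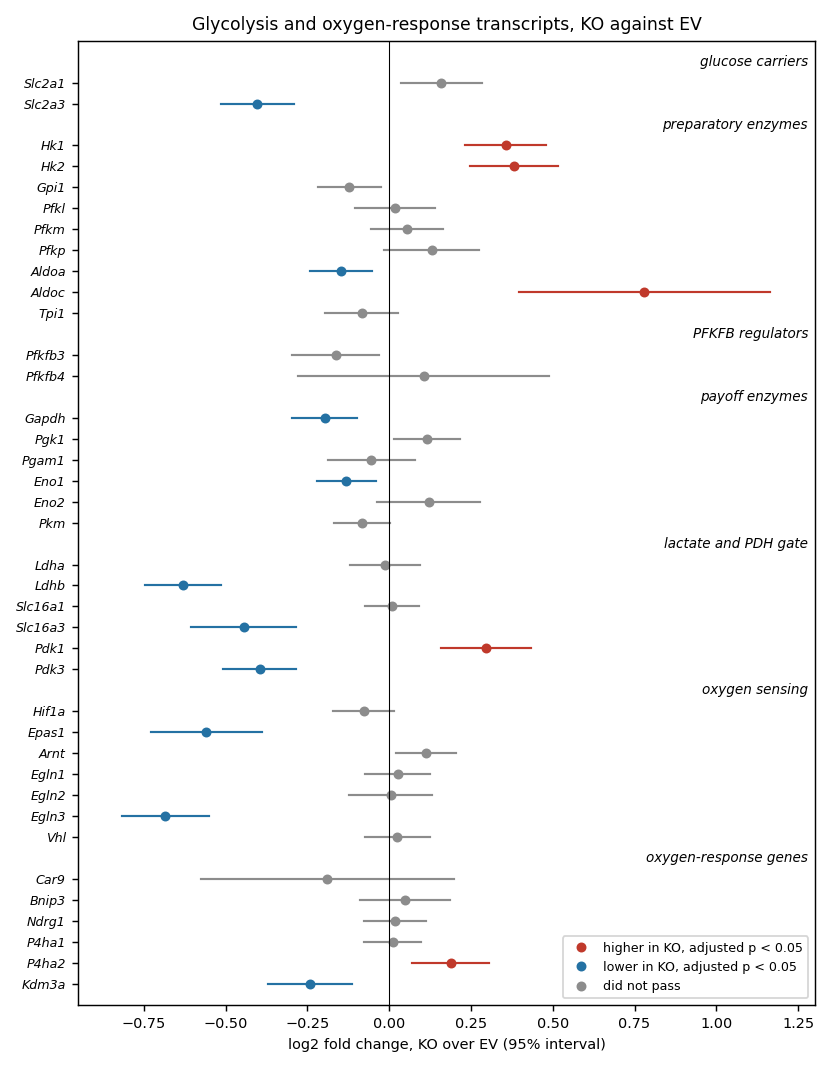
Fold change of the 38 tested members. Points are log2 fold changes of KO over EV from edgeR and bars their 95% intervals, grouped by role; red points are higher and blue points lower in KO past an adjusted p of 0.05, and grey points did not pass. Values run from -0.68 for Egln3 to 0.78 for Aldoc.

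Among the 25 genes of glucose use, all tested, 4 were higher and 7 lower in KO (44.0%), with a median log2 fold change of -0.01 and a median absolute value of 0.13. Among the 15 genes of oxygen sensing and response, 13 were tested, 1 was higher and 3 were lower (30.8%), with a median of 0.01 and a median absolute value of 0.08. Over all tested genes the median absolute value was 0.14. The difference between the enzyme and oxygen groups was not tested, and their shares are set here beside the 26.0% of all genes.

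HIF binds a short core in DNA, and many glycolytic promoters hold it. The core was searched as ACGTG or GCGTG on both strands in RefSeq promoters (GRCm38.p6). Each runs from 250 bases before a transcript start to 50 after it, and some of these starts lie inside the gene. It was found for 33 of the 37 members with a promoter in the table (89.2%), for 68.3% of tested genes and for 46.7% of all genes with a promoter. All 5 members higher in KO held it, as did all 8 with a promoter of the 10 that were lower and 18 of 22 (81.8%) that were tested and did not pass, so its presence did not separate the directions. No promoter was matched for Slc2a3, Epas1 and Ndrg1. Shown are promoters of the transcript with the lowest log2 fold change in each of the oxygen and glycolysis groups, Egln3 and Ldhb, and of a pair that was higher, Hk2 and Pdk1. They are written 5′ to 3′ along the gene, and capitals mark the core or its reverse complement. They lie at chr12:54203825-54204124 on the minus strand (Egln3), chr6:142507908-142508207 on the minus strand (Ldhb), chr6:82774405-82774704 on the minus strand (Hk2) and chr2:71872974-71873273 on the plus strand (Pdk1).
Egln3: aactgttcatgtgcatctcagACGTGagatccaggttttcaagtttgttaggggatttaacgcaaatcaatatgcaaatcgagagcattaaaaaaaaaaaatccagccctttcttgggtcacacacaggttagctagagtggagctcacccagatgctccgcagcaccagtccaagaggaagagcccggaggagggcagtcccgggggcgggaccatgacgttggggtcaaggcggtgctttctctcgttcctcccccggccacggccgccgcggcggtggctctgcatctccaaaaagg
Ldhb: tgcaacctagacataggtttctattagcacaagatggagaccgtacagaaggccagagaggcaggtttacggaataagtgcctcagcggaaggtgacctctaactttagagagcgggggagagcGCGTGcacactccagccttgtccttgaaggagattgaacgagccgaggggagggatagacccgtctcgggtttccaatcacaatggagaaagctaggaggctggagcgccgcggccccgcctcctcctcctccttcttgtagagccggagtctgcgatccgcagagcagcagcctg
Hk2: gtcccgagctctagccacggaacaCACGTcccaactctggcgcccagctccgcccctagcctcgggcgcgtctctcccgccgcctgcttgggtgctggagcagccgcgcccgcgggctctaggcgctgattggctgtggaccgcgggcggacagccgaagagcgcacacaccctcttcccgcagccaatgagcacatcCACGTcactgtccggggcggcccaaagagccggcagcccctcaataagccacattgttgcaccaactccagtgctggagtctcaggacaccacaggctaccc
Pdk1: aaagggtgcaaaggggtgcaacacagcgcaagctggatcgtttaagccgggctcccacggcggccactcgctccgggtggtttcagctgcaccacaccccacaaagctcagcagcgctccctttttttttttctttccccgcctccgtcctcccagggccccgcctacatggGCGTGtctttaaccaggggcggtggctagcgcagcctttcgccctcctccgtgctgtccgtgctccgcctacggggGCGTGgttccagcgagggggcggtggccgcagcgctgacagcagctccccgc
Egln3 and Ldhb have 1 core each, and Hk2 and the Pdk1 promoter shown have 2 each, while a second Pdk1 promoter in the table has 0. A gene with several promoters was counted where any of them held the core. By the promoter with most cores, members higher in KO had 5 (Hk1), 4 (P4ha2), 3 (Aldoc) and 2 (Hk2 and Pdk1). Members lower in KO had 4 (Pdk3), 3 (Gapdh), 2 (Eno1 and Slc16a3) and 1 (Aldoa, Ldhb, Egln3 and Kdm3a). These ranges overlapped, and a relation between the number of cores and direction was not tested. A match of these letters is a description of the window and shows no binding.

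The carriers that bring glucose into the cell differed in direction. Slc2a3, which encodes the high-affinity carrier GLUT3, was 63.9, 70.3, 68.0 and 61.7 CPM in KO libraries, against 86.8, 91.7, 87.0 and 83.6 CPM in EV libraries. Every KO library lay below every EV library, and the log2 fold change was -0.40 ± 0.0534 (SE; edgeR adjusted p = 1.3e-05). Slc2a1, encoding the widely expressed carrier GLUT1 and a classical HIF target, was 43.6, 45.3, 41.1 and 43.1 CPM in KO libraries, against 39.9998, 39.5, 35.9 and 39.6 CPM in EV libraries. Its groups did not overlap either, with KO above EV, but the difference of 0.16 ± 0.0588 did not pass (adjusted p = 0.0533, against 0.047 without EV replicate 4 and 0.0475 without KO replicate 3). Slc2a3 overlaps a gene model on its own strand and Slc2a1 overlaps others on the opposite strand, and how the authors counted such reads was not given in the sources used here. Of the FPKM of both carriers together, Slc2a3 made up 38.8% ± 1.55 in KO and 48.4% ± 1.56 in EV (SD, n = 4 each), with no overlap between the groups; a share within a library does not depend on scaling between libraries.

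Hexokinases, which trap glucose as glucose 6-phosphate, were both higher in KO. Hk1, the constitutive form, was 61.0, 62.7, 53.5 and 62.0 CPM in KO libraries, against 46.4, 45.2, 49.1 and 46.3 CPM in EV libraries. Hk2, the form that HIF and insulin induce, was 54.3, 54.8, 51.3 and 50.4 CPM in KO libraries, against 44.4, 40.9, 40.5 and 36.1 CPM in EV libraries. Neither gene overlapped between the groups, and the log2 fold changes were 0.36 ± 0.0593 for Hk1 and 0.38 ± 0.0636 for Hk2 (edgeR adjusted p = 0.000169 for each). Hk2 made up 40.7% ± 1.63 of their summed FPKM in KO and 40.2% ± 2.21 in EV, with overlapping groups. Both genes have an antisense gene model on the opposite strand in the table.

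The next steps of the preparatory phase, to phosphofructokinase, did not pass in edgeR, and Gpi1 lay close to the threshold. Gpi1, which turns glucose 6-phosphate into fructose 6-phosphate, averaged 367 ± 18.7 CPM in KO and 399.9 ± 12.5 CPM in EV (log2 fold change -0.12, edgeR adjusted p = 0.0578). Every KO library of Gpi1 was below every EV library, and it passed as lower in DESeq2 (adjusted p = 0.0349) and in limma-voom (adjusted p = 0.0472). The phosphofructokinases Pfkl, Pfkm and Pfkp, which catalyse the committed step, had log2 fold changes of 0.02, 0.05 and 0.13 and overlapping groups, and their shares of the summed phosphofructokinase FPKM overlapped too. Pfkfb3 and Pfkfb4, whose product fructose 2,6-bisphosphate activates that step, had values of -0.16 (adjusted p = 0.0662) and 0.11 (adjusted p = 0.716).

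Aldolase isoforms, which cleave the phosphorylated sugar, moved apart. Aldoa, the main form, averaged 644 ± 13.9 CPM in KO and 714 ± 36.5 CPM in EV (log2 fold change -0.15 ± 0.0451, edgeR adjusted p = 0.021). Aldoc, the brain form, was 3.503, 3.38, 4.91 and 4.07 CPM in KO libraries, against 2.36, 1.75, 2.64 and 2.56 CPM in EV libraries. Each KO value of Aldoc was above each EV value, a 1.72-fold difference (log2 0.78 ± 0.183, adjusted p = 0.00369) at a low level: Aldoc was 0.340% ± 0.0528 of the summed FPKM of both aldolases in KO and 0.181% ± 0.0331 in EV. Tpi1, which interconverts the resulting trioses, averaged 483 ± 11.04 CPM in KO and 512 ± 42.4 CPM in EV and did not pass (adjusted p = 0.267). EV replicate 4 was the lowest EV library for Tpi1, at 449 CPM.

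In the payoff phase, Gapdh and Eno1 were lower in KO and none of the 6 enzymes passed as higher in edgeR, DESeq2 or limma-voom. Gapdh, the triose dehydrogenase often used as a reference transcript, was 1441, 1284, 1461 and 1436 CPM in KO libraries, against 1651, 1555, 1685 and 1556 CPM in EV libraries. Its groups did not overlap, KO replicate 2 was the lowest library, and the log2 fold change was -0.20 ± 0.0478 (edgeR adjusted p = 0.00464). Eno1, the common enolase, averaged 592 ± 6.198 CPM in KO and 648 ± 29.1 CPM in EV (-0.13 ± 0.0434, adjusted p = 0.032). The call of Eno1 was lost without EV replicate 1 or 3 and without any 1 of the KO replicates (adjusted p = 0.0581 to 0.106), and that of Aldoa when EV replicate 3 or else KO replicate 1 or 4 was left out (adjusted p = 0.0506 to 0.0772). Eno1b, a retrotransposed copy that can share reads with Eno1, averaged 110.3 ± 7.28 CPM in KO and 113 ± 13.4 CPM in EV (adjusted p = 0.724).

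Pkm, encoding the pyruvate kinase of the last step, was 1643, 1604, 1657 and 1637 CPM in KO libraries, against 1782, 1747, 1766 and 1635 CPM in EV libraries. EV replicate 4 lay among the KO libraries, and the other 3 EV libraries were above all KO libraries; the interval of the log2 fold change ran from -0.17 to 0.00 (adjusted p = 0.15). Pgk1, which makes ATP from 1,3-bisphosphoglycerate, averaged 367 ± 13.0 CPM in KO and 339 ± 20.05 CPM in EV with no overlap (unadjusted p = 0.028, edgeR adjusted p = 0.089). Pgam1, the mutase, and Eno2, the neuronal enolase, had log2 fold changes of -0.06 and 0.12 with overlapping groups.

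**Figure D2:**
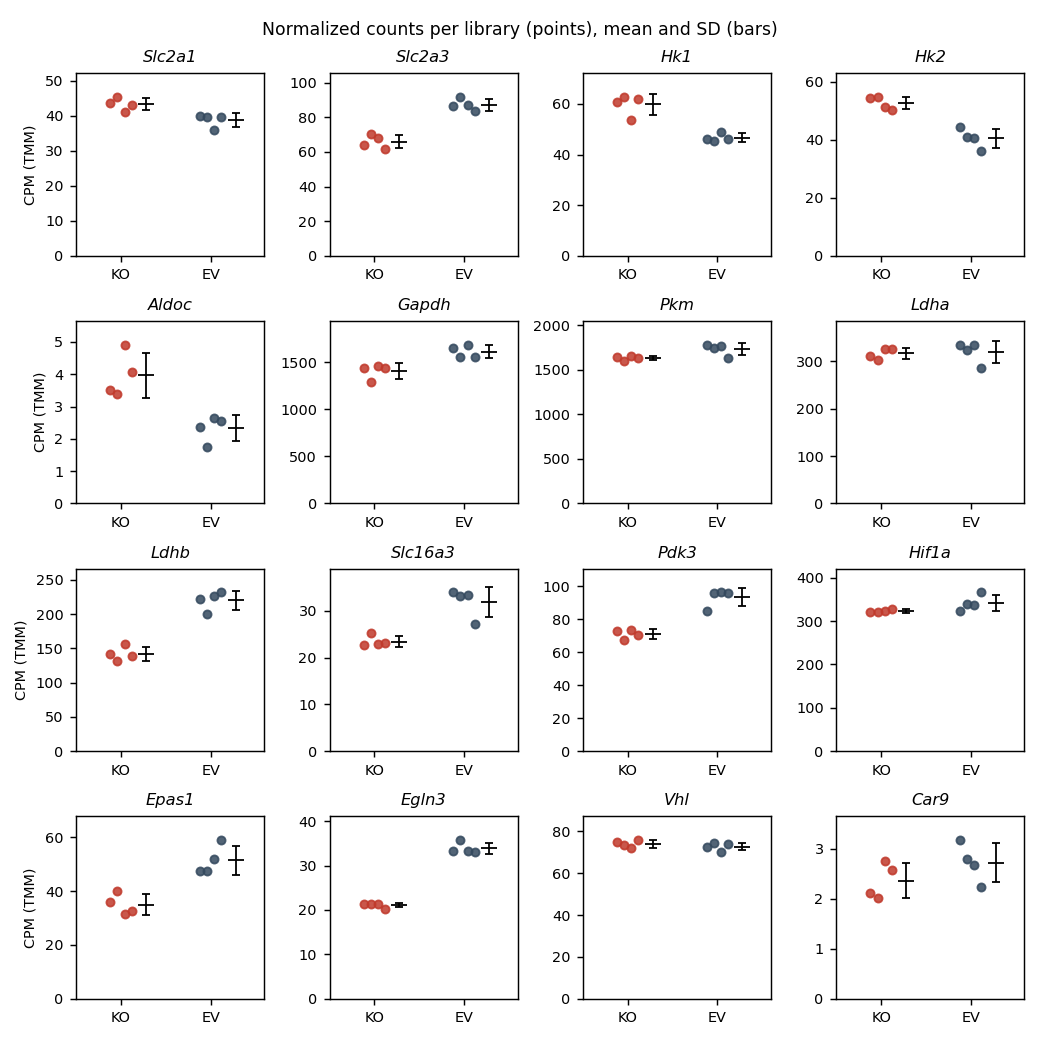
Level of 16 members in each library. The vertical axes give TMM-scaled CPM from 0; points are libraries, KO in red on the left and EV in dark blue on the right, with the mean and SD (n = 4) beside them. Slc2a3, Gapdh, Ldhb, Slc16a3, Pdk3, Epas1 and Egln3 separate with KO below EV, Slc2a1, Hk1, Hk2 and Aldoc with KO above, and Pkm, Ldha, Hif1a, Vhl and Car9 overlap.

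Lactate dehydrogenase interconverts pyruvate and lactate, and its tetramers mix subunits from Ldha and Ldhb. LDHA-rich forms are typical of tissues that make lactate and LDHB-rich forms of heart. Ldhb (chromosome 6, 142490249 to 142507957, minus strand, mm10) was 142, 132, 156 and 139 CPM in KO libraries, against 221, 200.5, 226 and 232 CPM in EV libraries. The groups were far apart, with Ldhb 1.55-fold lower in KO (log2 -0.63 ± 0.0559, edgeR adjusted p = 7.39e-08). Ldha, a classical HIF target, was 309.9, 303, 326 and 325.5 CPM in KO libraries, against 335, 324, 333 and 285 CPM in EV libraries. These overlapped (log2 -0.01, interval -0.12 to 0.09, adjusted p = 0.87). Ldhb thus made up 37.8% ± 1.25 of their summed FPKM in KO and 48.3% ± 2.91 in EV, without overlap. Around Ldhb, 4 of 9 tested genes within 1 Mb were lower in KO and none was higher (median log2 fold change -0.19), and 24.8% of the 632 tested genes of chromosome 6 were lower, against 13.4% of all genes. Chromosome 6 holds 8 tested members, of which Slc2a3, Gapdh, Ldhb and Kdm3a were lower, Hk2 was higher, and Tpi1, Eno2 and Vhl did not pass; the part of the chromosome in these values was not tested.

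Lactate leaves or enters cells through monocarboxylate carriers. Slc16a3, which encodes the exporter MCT4, was 22.7, 25.3, 22.8 and 23.0 CPM in KO libraries, against 34.0, 33.2, 33.5 and 27.1 CPM in EV libraries. EV replicate 4 was the lowest EV library but still above all KO libraries, and the log2 fold change was -0.45 ± 0.0769 (edgeR adjusted p = 0.000243). Slc16a1, encoding the bidirectional carrier MCT1, averaged 271 ± 3.40 CPM in KO and 269.8 ± 4.83 CPM in EV (adjusted p = 0.894). Slc16a3 was 8.11% ± 0.363 of their summed FPKM in KO and 10.8% ± 0.895 in EV.

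Of the kinases that inhibit pyruvate dehydrogenase, Pdk1 and Pdk3 moved in opposite directions. Pdk1, a HIF target, was 28.7, 29.8, 27.4 and 28.1 CPM in KO libraries, against 24.3, 22.1, 22.7 and 23.7 CPM in EV libraries. All KO libraries exceeded all EV libraries (log2 0.30 ± 0.0655, edgeR adjusted p = 0.00228). Of 12 tested genes within 1 Mb of Pdk1, 7 were lower in KO and 1 was higher. Over all tested genes 13.4% were lower and 12.6% higher, and the part of these neighbours was not tested. Pdk3, the isoform with high activity, was 73.0, 67.1, 73.2 and 70.04 CPM in KO libraries, against 85.04, 95.6, 96.2 and 95.8 CPM in EV libraries. EV replicate 1 was the lowest EV library, the groups did not overlap, and Pdk3 had a log2 fold change of -0.40 ± 0.0532 (adjusted p = 1.55e-05). Of 9 tested genes within 1 Mb of Pdk3, 4 were lower in KO and none was higher (median log2 fold change -0.10). These counts stand beside the same 13.4% and 12.6% of all genes, and their part was not tested. Among Pdk1, Pdk2 and Pdk3, Pdk3 remained the main transcript per length, at 65.8% ± 1.27 of their summed FPKM in KO and 71.1% ± 2.18 in EV. Pdk1 made up 10.8% ± 0.603 in KO and 7.24% ± 0.528 in EV. Pdk2 made up 23.4% ± 0.811 in KO and 21.7% ± 1.81 in EV, with overlapping groups. Pdk4 was not part of this sum.

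**Figure D3:**
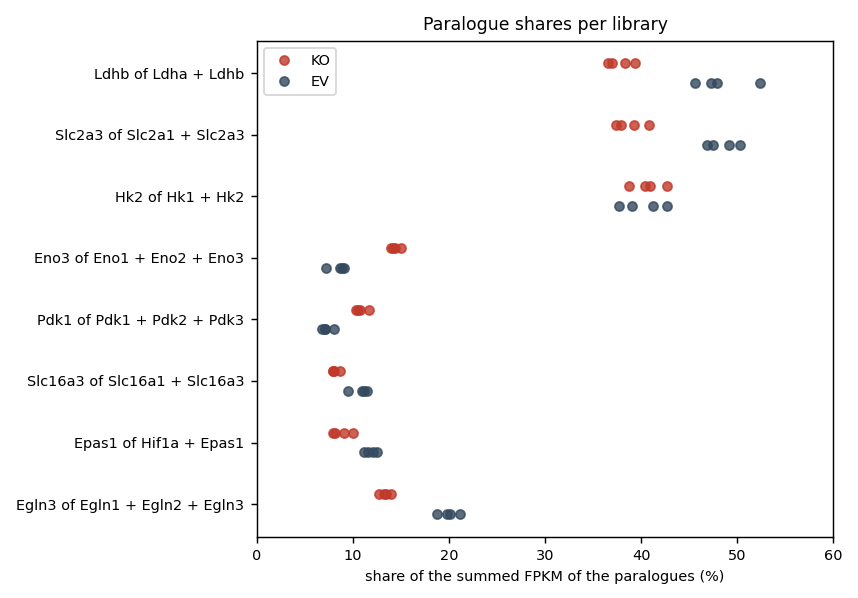
Share of 1 gene in the summed FPKM of its family, per library. The horizontal axis gives percent; red points are KO libraries and dark blue points EV libraries. The groups separate for Ldhb (37.8% on average in KO, 48.3% in EV), Slc2a3, Eno3, Pdk1, Slc16a3, Epas1 and Egln3, and overlap for Hk2.

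Summed over the 25 genes of glucose use, the level was 6791 to 7192 CPM in KO libraries, against 7219 to 7832 CPM in EV libraries, a difference of -7.42% on average, without overlap. In the deposited FPKM, which carry no correction for library composition, the sums were 3416 to 3635 in KO and 3834 to 4130 in EV, a difference of -11.8%. The sums follow the most abundant members, since Gapdh alone reached 972 ± 53.7 FPKM in KO and 1154 ± 39.4 FPKM in EV. Next in FPKM came Pkm, at 660.2 ± 7.36 in KO and 724 ± 25.6 in EV, and Aldoa, at 408 ± 7.58 in KO and 469 ± 21.4 in EV. At the low end Pfkfb4 was at 0.854 ± 0.137 FPKM in KO and 0.823 ± 0.124 FPKM in EV, which overlapped. Within the EV group, replicate 4 was the lowest library for 12 of the 25 genes and the highest for 3. Within the KO group replicate 2 was the lowest for 12 and the highest for 10.

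**Figure D4:**
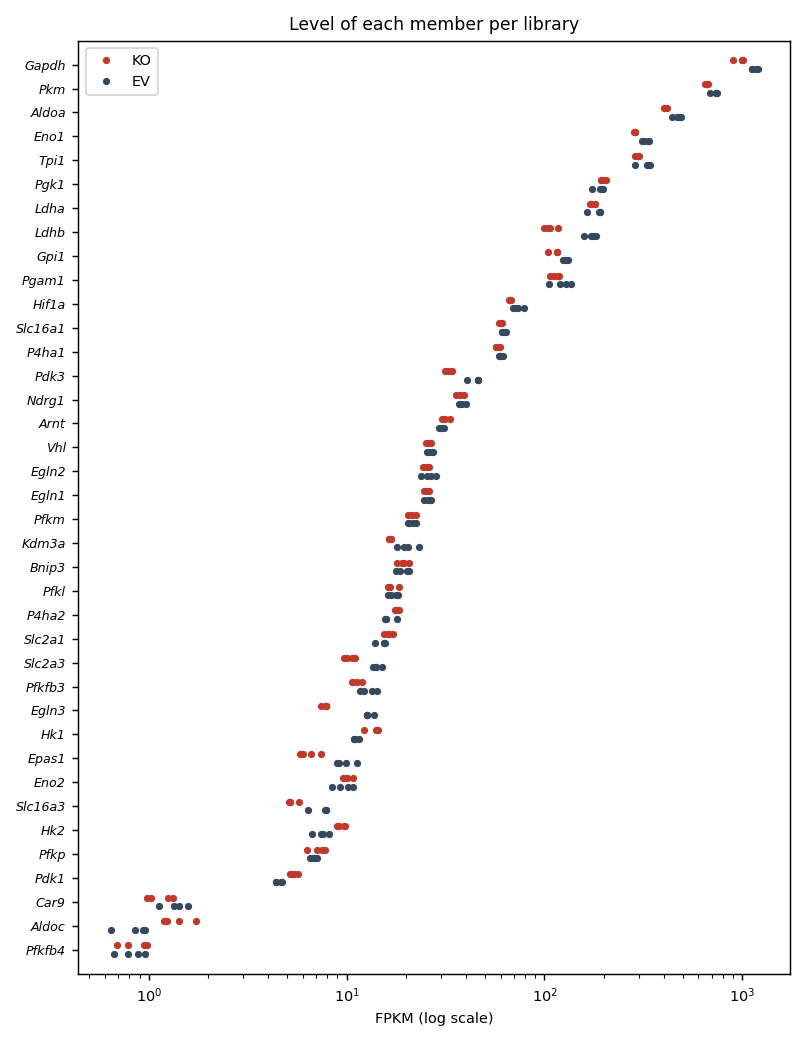
FPKM of the 38 tested members per library, on a log axis, ordered by the EV mean. Red points are KO and dark blue points EV libraries; levels span from 0.823 FPKM for Pfkfb4 to 1154 FPKM for Gapdh (EV means), and for most members the distance between groups is small beside the distance between genes.

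Among the oxygen sensors, Epas1 and Egln3 were lower in KO and the others did not pass. Hif1a, the main alpha subunit, was 319.9, 321, 324.5 and 328 CPM in KO libraries, against 323, 339, 337 and 366 CPM in EV libraries. The KO libraries lay close together and overlapped only the lowest EV library, and the interval of the log2 fold change ran from -0.17 to 0.02 (edgeR adjusted p = 0.22). Epas1, encoding HIF2 alpha, was 35.9, 40.02, 31.5 and 32.5 CPM in KO libraries, against 47.3, 47.6, 51.9 and 59.0 CPM in EV libraries. All KO libraries were below all EV libraries (log2 -0.56 ± 0.0806, adjusted p = 3.48e-05), and Epas1 made up 8.78% ± 0.940 of the alpha subunit FPKM in KO and 11.8% ± 0.614 in EV. The summed markers of endothelium, where Epas1 is prominent, were also lower in KO, as given above. Of these 7 markers 3 were tested, and 4 were higher on average in KO. Kdr made up most of the sum, at 14.6 CPM in KO and 21.7 CPM in EV. Robo4 was lower too, and Tek was higher in KO, at 5.19 CPM against 3.89 CPM in EV (edgeR adjusted p = 0.0298). Pecam1, Cdh5, Tie1 and Vwf were too low to test. They averaged 0.0600, 0.0520, 0.0133 and 0.268 CPM in KO, against 0.152, 0.0337, 0 and 0.0952 CPM in EV. The part of the endothelial markers in the Epas1 difference was not tested. Arnt, the shared partner, averaged 139 ± 4.89 CPM in KO and 128 ± 2.72 CPM in EV, without overlap (0.11 ± 0.0440, adjusted p = 0.0652).

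Egln3, the prolyl hydroxylase most strongly induced by HIF in many cells, had the lowest log2 fold change of all members. It was 21.4, 21.4, 21.3 and 20.3 CPM in KO libraries, against 33.4, 35.7, 33.4 and 33.0 CPM in EV libraries. Both groups were tight and well separated, with Egln3 1.61-fold lower in KO (log2 -0.68 ± 0.0632, edgeR adjusted p = 1.26e-07). Of 8 tested neighbours within 1 Mb none was lower and 1 was higher, against 13.4% lower and 12.6% higher of all genes. The part of these neighbours was not tested. The share of Egln3 in the summed FPKM of the 3 hydroxylases was 13.3% ± 0.528 in KO and 19.96% ± 0.988 in EV. Egln1, the main HIF hydroxylase, averaged 91.0 ± 2.52 CPM in KO and 89.5 ± 3.05 CPM in EV, and Egln2 54.1 ± 2.08 CPM in KO and 54.0 ± 4.34 CPM in EV. Vhl, the recognition subunit of the ligase that degrades hydroxylated HIF alpha, was 74.9, 73.3, 71.8 and 75.8 CPM in KO libraries, against 72.3, 74.5, 70.3 and 73.7 CPM in EV libraries. These overlapped (log2 0.02, interval -0.08 to 0.12, adjusted p = 0.745).

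Of the 8 oxygen-response genes, P4ha2 was higher, Kdm3a was lower, 4 did not pass and 2 were too low to test. P4ha2, a collagen prolyl hydroxylase subunit, averaged 55.9 ± 1.29 CPM in KO and 49.1 ± 3.01 CPM in EV (0.19 ± 0.0557, edgeR adjusted p = 0.0178). Kdm3a, a histone H3 lysine demethylase, averaged 81.9 ± 0.828 CPM in KO and 96.7 ± 10.2 CPM in EV (-0.24 ± 0.0611, adjusted p = 0.00638). The call of P4ha2 was lost without EV replicate 3 (adjusted p = 0.0605), without KO replicate 3 (0.0561), under scaling by library totals alone (0.0849), in the 3 limma fits on FPKM (0.0798 to 0.11) and without KO replicates 2 and 3 together (0.124). The call of Kdm3a was lost without KO replicates 2 and 3 together (adjusted p = 0.058).

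The remaining oxygen-response genes gave no common direction. Car9, a carbonic anhydrase that is among the most selective HIF1 targets, was 2.12, 2.01, 2.76 and 2.58 CPM in KO libraries, against 3.18, 2.80, 2.68 and 2.23 CPM in EV libraries. Its groups overlapped and the interval was wide, -0.58 to 0.20 (edgeR adjusted p = 0.493). Bnip3, a mitophagy receptor, Ndrg1, a stress-response gene, and P4ha1, the other collagen hydroxylase subunit, had log2 fold changes of 0.05, 0.02 and 0.01 with overlapping groups. Adm, encoding the peptide adrenomedullin, had 3, 3, 0 and 0 counts in KO libraries, against 2, 0, 2 and 1 in EV libraries, at or below the floor of 3 counts per library used here. Ankrd37, an ankyrin repeat gene, had 5, 9, 18 and 16 counts in KO, against 12, 5, 3 and 9 in EV, which overlap and were not tested.

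Further genes of the same pathways, taken from lists of their own, are given next beside the members. Of 25 further oxygen-response genes tested, 5 were higher and 4 lower in KO (36.0%), with a median log2 fold change of 0.02. Angptl4, a secreted lipase inhibitor, was 11.9, 12.4, 13.5 and 14.2 CPM in KO libraries, against 6.63, 6.69, 5.23 and 4.98 CPM in EV libraries, and Vegfa, the endothelial growth factor, averaged 74.0 ± 1.81 CPM in KO and 51.1 ± 2.06 CPM in EV. Both were higher in KO without overlap (edgeR adjusted p = 4.39e-07 for Angptl4 and 1.93e-07 for Vegfa). Ak4, a mitochondrial adenylate kinase, averaged 25.3 ± 1.36 CPM in KO and 48.0 ± 2.22 CPM in EV, and Plod2, a collagen lysyl hydroxylase, 113 ± 4.31 CPM in KO and 145 ± 10.2 CPM in EV. Both were lower in KO (adjusted p = 2.2e-09 for Ak4 and 3.85e-05 for Plod2), so well-known HIF targets changed in both directions. Of 12 further oxygen-sensing genes only Os9, an endoplasmic reticulum lectin, passed (8.33%, against 26.0% of all genes), at 237 ± 9.82 CPM in KO and 198 ± 12.7 CPM in EV (adjusted p = 0.000677). The groups did not overlap for 5 of the 12, 3 with KO above and 2 with KO below, against 26.5% of all tested genes. An unadjusted p under 0.05 was found for 8 in edgeR, 7 in DESeq2 and 8 in limma-voom. The share of all genes at that unadjusted cut is not given here, so whether these counts are high cannot be told.

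Beside the glycolytic members, 1 of 9 tested paralogues and gluconeogenesis genes passed (11.1%, against 26.0% of all genes). It was Eno3, the muscle enolase, at 76.7, 78.1, 79.0 and 84.0 CPM in KO libraries, against 52.0, 48.7, 49.99 and 39.2 CPM in EV libraries. It was higher in every KO library than in any EV library (edgeR adjusted p = 1.67e-07), opposite to the skeletal muscle markers, and made up 14.4% ± 0.473 of the enolase FPKM in KO and 8.43% ± 0.817 in EV. Of 12 genes of pyruvate entry to mitochondria, 1 passed (8.33%, against 26.0% of all genes). Pdp1, the phosphatase that reactivates pyruvate dehydrogenase, was higher, at 17.8 ± 0.731 CPM in KO and 14.7 ± 1.66 CPM in EV (edgeR adjusted p = 0.0286). Its call was lost when EV replicate 1 or 2 or KO replicate 1 or 3 was left out (adjusted p = 0.0719 to 0.0918). It was also lost under library totals alone (0.0724), in the 3 limma fits on FPKM (0.0899 to 0.166) and without KO replicates 2 and 3 together (0.126). The 8 pentose phosphate genes had log2 fold changes of 0.00 to 0.27, with a median of 0.05. None passed in edgeR (against 26.0% of all genes), DESeq2 or limma-voom. An unadjusted p under 0.05 was found for 0 of them in edgeR and DESeq2 and for 1 in limma-voom.

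All 10 tested glycogen genes had a negative log2 fold change, with a median of -0.10, where 6272 of all 12801 tested genes were negative. Of the 10, 3 passed as lower in KO (30.0%, against 26.0% of all genes in either direction and 13.4% lower). Pygb, the brain glycogen phosphorylase, averaged 158 ± 7.82 CPM in KO and 204 ± 9.63 CPM in EV (edgeR adjusted p = 1.25e-05), and Ugp2, which makes UDP-glucose, 148 ± 4.29 CPM in KO and 187 ± 7.94 CPM in EV (adjusted p = 1.29e-05). Pygm, the muscle phosphorylase, averaged 1.02 ± 0.155 CPM in KO and 2.28 ± 0.279 CPM in EV (adjusted p = 0.000703); the skeletal muscle markers moved the same way and their part was not tested. Of 11 glucose-responsive and regulatory genes 1 passed (9.09%, against 26.0% of all genes). It was Ppargc1a, a coactivator of mitochondrial genes, at 9.13 ± 0.758 CPM in KO and 12.4 ± 1.57 CPM in EV, with overlapping groups (edgeR adjusted p = 0.00449).

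**Figure D5:**
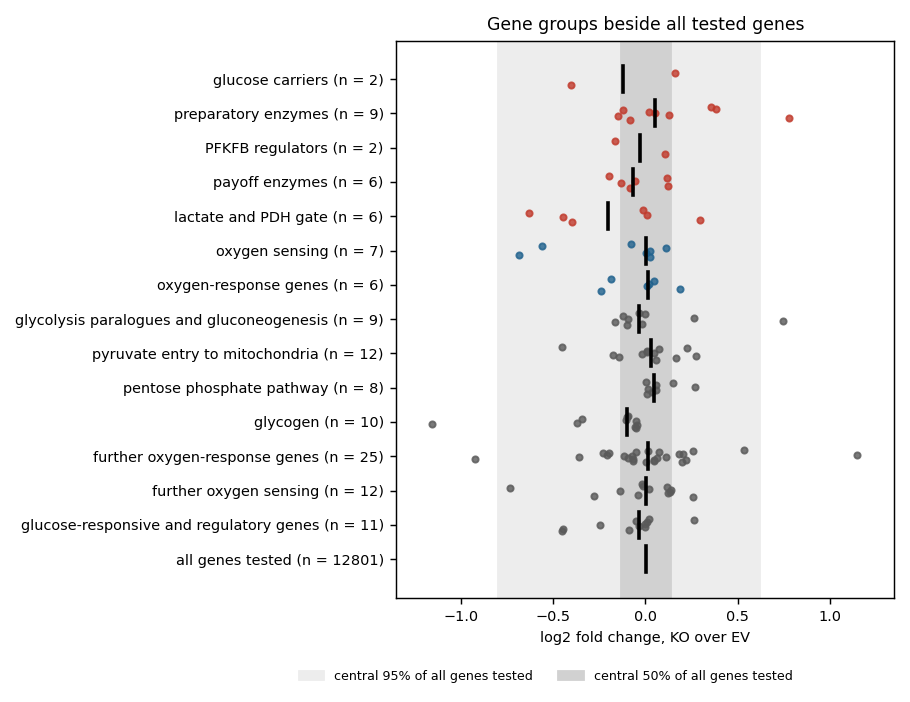
Log2 fold changes of KO over EV by gene group. Points are genes (red for glucose use, blue for oxygen sensing and response members, grey for the further lists), black bars are medians, and the shaded bands hold the central 50% and 95% of all 12801 tested genes. The medians of the member groups run from -0.21 for the lactate and pyruvate dehydrogenase genes to 0.05 for the preparatory enzymes.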

How the data were processed

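The authors deposited raw counts per gene and FPKM for 35275 genes of 4 KO and 4 EV libraries. The submitters' processing notes name mm10 and DESeq 1.6.3; the aligner, annotation and strandedness were not given in the sources used here. Genes on opposite strands of the same bases can therefore share reads. Beside those named with the results, Gpi1, Pfkm, Pfkp, Tpi1, Hif1a, Egln2, Car9, Ndrg1 and Ugp2 overlap such a gene. The deposited FPKM equal counts per length and column total within 1e-06 for 100% of values. Gene length was used as deposited.

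Counts were tested with edgeR 4.0.16 (R 4.3.3): TMM scaling, filterByExpr (minimum count 10, minimum total 15), a two-sided quasi-likelihood F test and Benjamini-Hochberg adjustment over 12801 genes at 0.05. The biological coefficient of variation was 6.41%. The standard error is the log2 fold change divided by the square root of F. CPM are TMM-scaled, with mean ± SD over 4 libraries, and intervals are at 95%. A count of 3 was 0.125 to 0.164 CPM. Hdac3 also had an exact permutation test over 70 arrangements.

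Members and lists were chosen with earlier results of these data known. Values in every library are given for members past the threshold with an absolute log2 fold change of at least 0.3 (Pdk1, just below it, was added after its value was seen) and for 9 fixed by name, and up to 4 genes are named from each further list. Alternatives were DESeq2 1.42.0, limma 3.58.1 with voom or on log2(FPKM + 1) and log2(FPKM + 0.1), other scaling and filters, the replicate number as a block, and libraries left out. Replicates of a group differed by more than counting noise.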

Additional observations from a re-analysis of the deposited data

Results flagged for a closer look

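Of 78 group values, those of the tested members and of Hdac3, checked for 1 library far from the other 3, 12 stood out. All of these belonged to members, and chance flags about 1 in 20 groups. Among KO libraries, replicate 2 was low for Gpi1 (339 CPM) and for Gapdh (1284 CPM) and high for Slc16a3 (25.3 CPM). KO replicate 1 was low for Slc16a1 (266 CPM), replicate 3 was high for P4ha2 (57.9 CPM), and replicate 4 was low for Egln3 (20.3 CPM). Among EV libraries, replicate 4 was low for Tpi1 (449 CPM) and for Slc16a3 (27.1 CPM). EV replicate 3 was low for Slc2a1 (35.9 CPM), replicate 1 was low for Pdk3 (85.04 CPM), and replicate 2 was high for Egln3 (35.7 CPM) and for P4ha2 (53.6 CPM).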

How the results depend on the processing

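Of the 15 members past the threshold, between 11 and 15 stayed past it in each alternative, and the members called numbered 12 to 20 when a single library was left out. Slc2a3, Hk1, Hk2, Aldoc, Gapdh, Ldhb, Slc16a3, Pdk1, Pdk3, Epas1 and Egln3 were called in every alternative run, with the same direction. Without EV replicate 4 the count rose to 20, with Slc2a1, Gpi1, Tpi1, Pkm and Arnt added. Pfkfb3 was added as lower without EV replicate 1, EV replicate 2 or KO replicate 2. With no filter on low counts, Gpi1 and Pfkfb3 were added. Leaving out KO replicates 2 and 3 gave 1974 genes past the threshold (880 higher and 1094 lower), 11 members and 2 oxygen genes, with fewer libraries. Genes higher in KO numbered 1039 with library totals alone (30.1% of calls, against 48.5% with TMM) and 896, 897 and 766 with limma on log2(FPKM + 1), on log2(FPKM + 0.1) and on log2(FPKM + 1) without a filter. The oxygen genes higher in KO, 1 in the main result, were 0 under these 4 settings and without KO replicates 2 and 3, and 0 to 2 with a single library left out. These 4 settings also added members as lower. Library totals alone added Gpi1, Pkm, Pfkfb3 and Hif1a (edgeR adjusted p = 0.00682, 0.0155, 0.0173 and 0.0407). The filtered limma fits on FPKM added Gpi1, Pkm and Pfkfb3, and the fit without a filter added Gpi1.

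Under the same 4 settings, in that order, values of uncalled members near 0 turned negative: Pfkl -0.034, -0.033, -0.035 and -0.033; Slc16a1 -0.042, -0.041, -0.042 and -0.041; Egln1 -0.025, -0.025, -0.026 and -0.025; Egln2 -0.046, -0.044, -0.045 and -0.044. Vhl was at -0.027, -0.025, -0.026 and -0.025, Bnip3 at -0.0032, -0.00035, -0.00033 and -0.00035, Ndrg1 at -0.033, -0.032, -0.033 and -0.032, and P4ha1 at -0.041, -0.040, -0.041 and -0.040. Egln2 was also at -0.0021 without a filter on counts. Without KO replicates 2 and 3, Egln2 was at -0.0087, Pfkl at -0.019 and Hdac3 at 0.024. With single libraries left out, the range was -0.032 to 0.049 for Pfkl, -0.064 to 0.0068 for Ldha, -0.0011 to 0.019 for Slc16a1, -0.038 to 0.044 for Egln2, -0.0038 to 0.039 for Ndrg1, -0.0043 to 0.024 for P4ha1 and -0.023 to 0.032 for Hdac3. The causes were not tested.

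The labels share replicate numbers 1 to 4. Deviations of same-numbered KO and EV libraries correlated at 0.159, -0.0434, 0.0897 and 0.146. The same-numbered EV library correlated best with KO replicates 1, 3 and 4, while EV replicate 4 correlated best with KO replicate 2. The correlations were low, and the main fit did not take the numbers as pairs, though pairing was not excluded. With the number as a replicate block, 18 members passed, with Slc2a1, Gpi1 and Pfkfb3 added and none lost, and 3737 genes in all. Low counts limit Car9, Aldoc and Pfkfb4, whose intervals are the widest of the members.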
